A study of Homo sapiens with 18 samples.

Results

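The 10 genes described here code for proteins that carry out silencing by small RNAs: the Argonautes *AGO1*, *AGO2*, *AGO3* and *AGO4*, the nuclease *DICER1* with its double-stranded RNA-binding partners *TARBP2* and *PRKRA*, and the GW182 family *TNRC6A*, *TNRC6B* and *TNRC6C*. They were taken by symbol from the count tables, in which transcripts had been paired with symbols and each gene was represented by its most counted transcript (summed over the 18 samples). All 10 were among the 26941 genes of the series, and each passed the filter on low counts in every comparison. They were chosen by name, with earlier results of these data known, because a knockdown by siRNA works through this machinery.

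In human cells Dicer cuts long hairpins and double-stranded RNA into short duplexes, and one strand of such a duplex, or of a transfected small interfering RNA (siRNA), is loaded into an Argonaute. *AGO2* is the Argonaute with strong cleavage activity, so that an siRNA with full complementarity directs the cut of its target mRNA, whereas the other Argonautes act mainly by recruiting GW182 proteins, which bring in the enzymes that shorten the poly(A) tail and remove the cap. B-cell precursors depend on this pathway, since loss of Dicer or Argonaute function is known to impair early B-cell development in mice.

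RNA-seq was performed on 18 samples of 3 B-cell precursor acute lymphoblastic leukemia (B-ALL) cell lines, REH, which carries the *ETV6-RUNX1* fusion, 697 and RCH-ACV. Cells of each line received an siRNA against *SOX11* or a control siRNA without that target, at 300 nM by nucleofection, and RNA was collected after 48 h from 3 samples per line and siRNA. The sample titles call the *SOX11* siRNA samples KO, but the treatment was a transient knockdown with no edited allele, and there was no sample without siRNA. Each group is thus a single established line, and all groups, controls included, carried a transfected siRNA that the machinery described here acts on.

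The total count per sample on the 26941 genes lay between 7039594 and 16592492, and a gene with 3 counts would have had between 0.181 and 0.426 CPM (read counts scaled to the size of each library), a floor that covers counting error only. The B-cell precursor markers summed to between 3914 and 5426 CPM in each sample, with counts for all 9 markers in each line, although *VPREB1* (surrogate light chain) did not exceed 0.0951 CPM in REH. The T cell and erythroid markers summed to at most 0.582 and 0.466 CPM and *CD3D* was at 0 in every sample. The myeloid markers summed to between 2.33 and 31.1 CPM, highest in RCH-ACV (23.6 to 31.1 CPM), with *ELANE* at 0 in every sample, and their part in the differences between lines was not tested. For the siRNA 2 of 8 tested B-cell precursor markers passed (adjusted p under 0.05) in REH. In 697 2 of 9 did and in RCH-ACV 3 of 9 (log2 fold changes of -0.37 to 0.46). Among all tested genes 4.65%, 0.559% and 7.64% passed in REH, 697 and RCH-ACV. *MPO*, the myeloid marker tested in REH, was lower there (-0.78, adjusted p = 0.000237, edgeR). The part of these markers in the siRNA results was not tested. Of the libraries, 3 differed more from their replicates than these did from each other, with a chi-square over its degrees of freedom of 4.13 and 4.97 against 1.77 for 697 control replicate 1, 3.45 and 4.54 against 1.58 for 697 *SOX11* siRNA replicate 3, and 3.32 and 4.29 against 1.32 for RCH-ACV *SOX11* siRNA replicate 3. *SOX11* itself was at 97.8, 97.5 and 92.7 CPM in the REH control samples and at 47.3, 53.1 and 60.9 CPM with *SOX11* siRNA. In 697 it was at 60.2, 59.3 and 59.6 CPM against 32.8, 31.8 and 31.1 CPM, and in RCH-ACV at 125, 136 and 133 CPM against 81.6, 79.2 and 86.7 CPM, so that no knockdown sample reached a control sample of its line. Levels are given as CPM after trimmed mean of M-values (TMM) scaling over the 18 samples, and in bulk RNA fewer cells of a kind and less RNA per cell cannot be told apart.

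For the 10 genes it was asked whether their levels changed with *SOX11* siRNA, and whether the lines differed in them under control siRNA, as background for the knockdown. *SOX11* siRNA moved the 10 genes little. In REH *AGO1* was the member past the threshold, lower by 0.17 on the log2 scale, and with the 3 lines fitted together *AGO1* was lower and *DICER1* higher. The lines differed from each other far more, with mean *TNRC6A* levels of 199 CPM in REH and 107 CPM in 697 and mean *PRKRA* levels of 49.1 and 96.4 CPM in the control samples.

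Within each line the siRNA groups were compared by the quasi-likelihood test of edgeR, and an adjusted p-value (Benjamini-Hochberg over all tested genes) under 0.05 was the threshold. In REH 1 of the 10 members passed, against 4.65% of 12787 tested genes (2.64% higher and 2.02% lower). None of the 10 passed in 697, where 0.559% of 12169 genes did (0.0822% higher and 0.477% lower), and 1 had an unadjusted p under 0.05. None passed in RCH-ACV, where 7.64% of 12963 genes did (3.68% higher and 3.97% lower), and 2 had an unadjusted p under 0.05. The number of members with an unadjusted p under 0.05 was also 2 in REH. The share of all tested genes under that unadjusted threshold was not counted. By DESeq2 no member passed in any of the 3 lines. The median log2 fold change of the 10 members was -0.07, -0.05 and -0.02 for REH, 697 and RCH-ACV, where that of all tested genes was -0.00, -0.00 and 0.01.

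**Figure D1:**
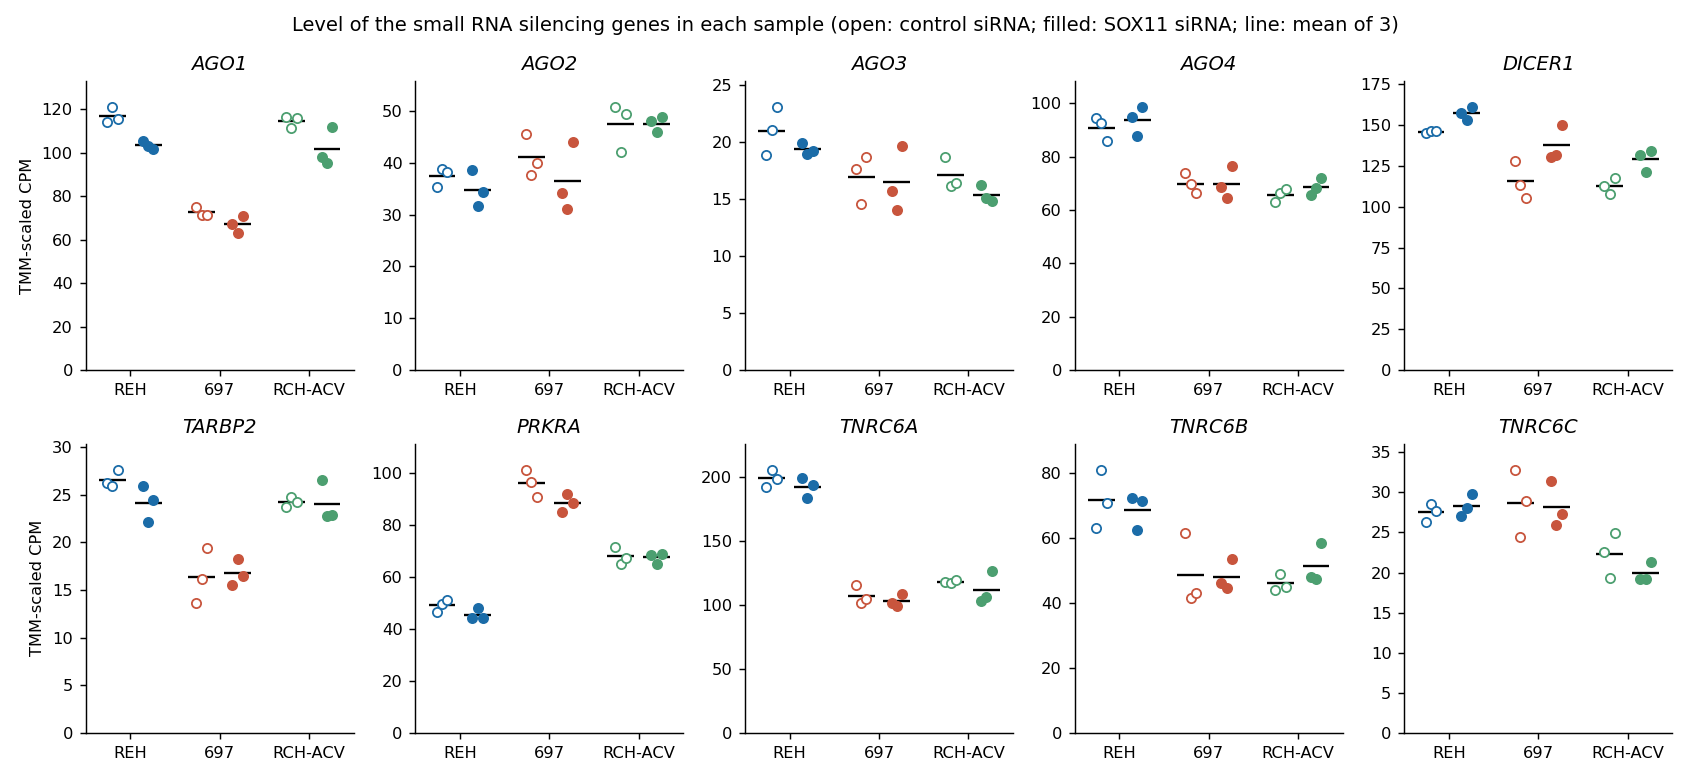
TMM-scaled CPM (y axis, from 0) of the 10 genes in each of the 18 samples by cell line (x axis), with open points for control siRNA, filled points for *SOX11* siRNA and a line for the mean of 3. *AGO1* sits lower in 697 (71.4 to 75.1 CPM with control siRNA) than in the other lines, *PRKRA* is highest in 697, *TNRC6A* is lower in 697 and RCH-ACV than in REH, and *DICER1* is higher with *SOX11* siRNA in each line.

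*AGO1* lies on chromosome 1 of hg19 from 36335409 to 36396133, on the plus strand between *AGO4* (36273617 to 36323491) and *AGO3* (36396319 to 36538101). In REH its level was 114, 121 and 116 CPM with control siRNA and 106, 103 and 102 CPM with *SOX11* siRNA. All 3 *SOX11* siRNA samples lay below all 3 controls, which held for 12.2% of tested genes in REH. The log2 fold change was -0.17 (SE 0.04, 95% interval -0.26 to -0.07), with an adjusted p of 0.0323 in edgeR's quasi-likelihood test. The log2 fold change lay between -0.18 and -0.14 in all alternatives, but not the call: the adjusted p was 0.130 with DESeq2, 0.147 with the 18 samples in 1 fit and 0.0736 in a fit blocked on the replicate number. It was also lost without any of the *SOX11* siRNA replicates 1, 2 and 3 (0.0698, 0.0940 and 0.0914) or without control replicate 2 or 3 (0.145 and 0.0972).

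In 697 *AGO1* was at 75.1, 71.4 and 71.5 CPM with control siRNA and at 67.5, 63.0 and 71.0 CPM with *SOX11* siRNA. Here too the groups did not overlap, as for 6.63% of tested genes in 697, but the log2 fold change of -0.12 (SE 0.07) had an adjusted p of 0.693 in edgeR's test, and was -0.11 without control replicate 1 and -0.16 without *SOX11* siRNA replicate 3. In RCH-ACV the controls were at 116, 111 and 116 CPM and the *SOX11* siRNA samples at 98.1, 95.2 and 112 CPM, so that the third *SOX11* siRNA replicate lay within the control range. The log2 fold change was -0.18 (SE 0.06) with an adjusted p of 0.0819. That replicate stood apart beyond *AGO1*, since 2518 genes in place of 991 passed in RCH-ACV without it, and *AGO1* was then at -0.25 with an adjusted p of 0.000303 (edgeR).

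*DICER1*, which makes the mature microRNA duplex, lies on chromosome 14 of hg19 from 95552565 to 95624347 on the minus strand. In REH it was at 145, 146 and 147 CPM with control siRNA and at 157, 153 and 161 CPM with *SOX11* siRNA. The 697 controls were at 128, 113 and 105 CPM and the *SOX11* siRNA samples at 131, 132 and 150 CPM, and in RCH-ACV the values were 113, 108 and 118 CPM against 132, 121 and 134 CPM. Every *SOX11* siRNA sample was thus above every control of its line in each of the 3 lines, a pattern that 0.584% of the 11310 genes tested in all lines showed in this direction. In no line did it pass the test by itself. The log2 fold changes were 0.12 in REH (SE 0.04, adjusted p = 0.0967), 0.24 in 697 (SE 0.08, adjusted p = 0.306) and 0.18 in RCH-ACV (SE 0.05, adjusted p just above 0.05, edgeR). In 697 the value was 0.32 without control replicate 1 and 0.18 without *SOX11* siRNA replicate 3 (adjusted p = 0.0927 and 0.523). In RCH-ACV the adjusted p was 0.0354 without the second and 0.0391 without the third *SOX11* siRNA replicate, and 0.0396 with library size alone in place of TMM.

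A fit of the 18 samples with cell line as a covariate, added after the effects in each line had been seen, gave 1 siRNA effect over the 3 lines. In it 2 of the 10 members passed, 1 higher and 1 lower, against 9.02% of 14026 genes (3.74% higher and 5.28% lower). *DICER1* rose by 0.18 on the log2 scale (SE 0.04, adjusted p = 0.00208) and *AGO1* had a log2 fold change of -0.16 (SE 0.04, adjusted p = 0.00260, both edgeR's quasi-likelihood test). *DICER1* passed in each of 27 alternative fits, with adjusted p-values between 0.000422 and 0.0360. *AGO1* passed in 25 of 27 and not without REH (adjusted p = 0.0583) or without RCH-ACV (0.0527). The groups of this fit are those of the 3 fits by line, so it is no independent evidence.

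**Figure D2:**
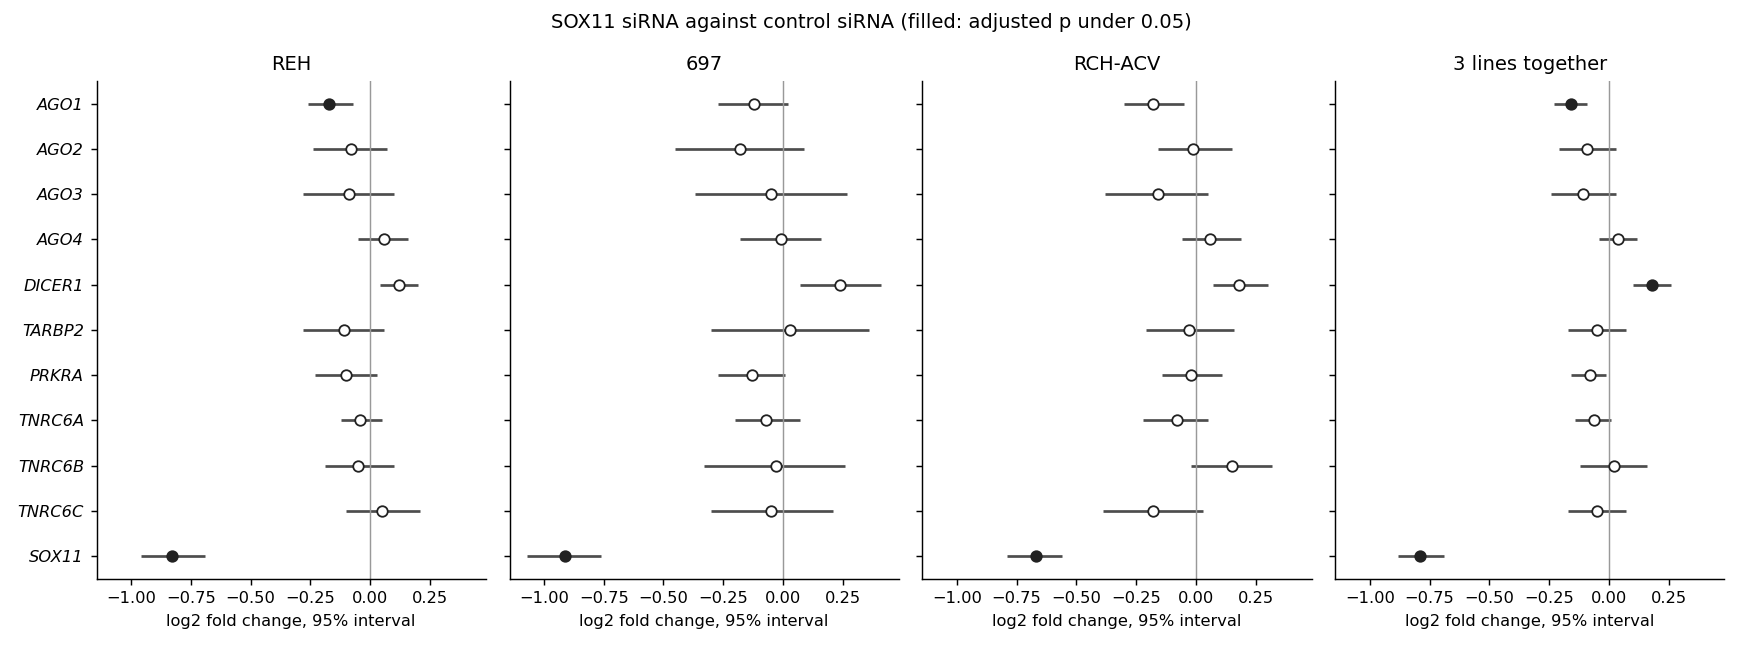
Log2 fold change (x axis) of the 10 genes and of *SOX11* (y axis) with *SOX11* siRNA against control siRNA, in each line and over the 3 lines together, with 95% intervals as bars and filled points for adjusted p under 0.05. *AGO1* is left of 0 and *DICER1* right of 0 in each panel, between -0.18 and 0.24, while *SOX11* lies between -0.91 and -0.67.

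Because *DICER1* and *AGO1* moved in opposite directions, their counts were also divided by each other within each sample, where no scaling between libraries enters. In REH the *DICER1* count over the *AGO1* count was 1.27, 1.21 and 1.27 with control siRNA and 1.49, 1.49 and 1.58 with *SOX11* siRNA. In 697 it was 1.70, 1.58 and 1.47 against 1.94, 2.09 and 2.12. RCH-ACV had 0.97, 0.97 and 1.02 against 1.34, 1.27 and 1.20. The 2 siRNA groups were apart in each line on this scale, as they already were for *DICER1* by itself. How often other pairs of genes were apart in this way was not counted. The pair of *DICER1* and *AGO1* was chosen after its values were seen, so the ratio is a description with no test.

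**Figure D3:**
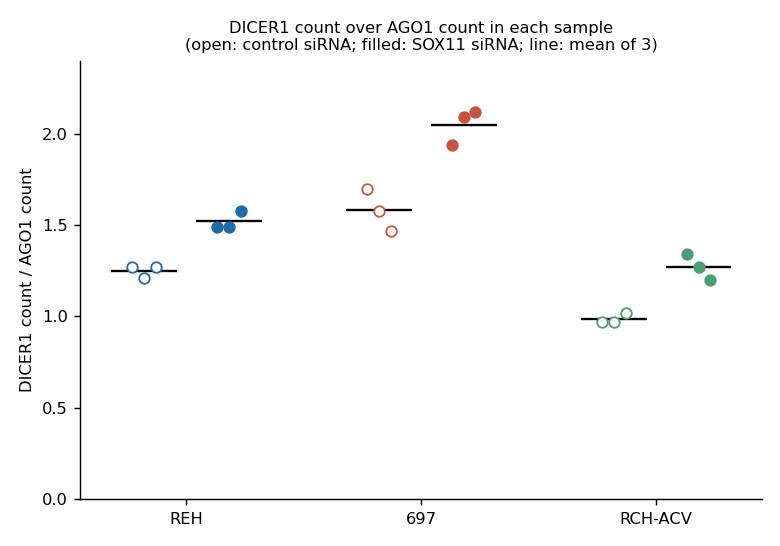
*DICER1* count divided by *AGO1* count (y axis, from 0) in each sample by cell line (x axis), with open points for control siRNA, filled points for *SOX11* siRNA and a line for the mean of 3. The filled points lie above the open points of the same line in all 3 lines, at 1.20 to 1.34 against 0.97 to 1.02 in RCH-ACV.

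The promoter windows of *AGO1* and *DICER1* are shown because these are the members that moved with the siRNA against *SOX11*, a transcription factor of the SOX family. Each holds 250 bases before and 50 bases from an annotated start of transcription (RefSeq, GRCh38.p14, a later build than the hg19 of the counts), and capitals mark the 50 transcribed bases. For *AGO1* it is the window listed (chr1:35882959-35883258, plus strand) and for *DICER1* the first of 5 listed (chr14:95157480-95157779, minus strand).
AGO1: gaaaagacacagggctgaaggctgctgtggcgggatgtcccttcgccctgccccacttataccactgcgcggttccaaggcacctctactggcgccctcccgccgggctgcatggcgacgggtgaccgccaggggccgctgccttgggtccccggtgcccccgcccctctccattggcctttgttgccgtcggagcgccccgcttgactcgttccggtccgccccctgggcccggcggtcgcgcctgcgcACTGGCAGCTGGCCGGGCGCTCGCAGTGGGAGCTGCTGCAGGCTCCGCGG
DICER1: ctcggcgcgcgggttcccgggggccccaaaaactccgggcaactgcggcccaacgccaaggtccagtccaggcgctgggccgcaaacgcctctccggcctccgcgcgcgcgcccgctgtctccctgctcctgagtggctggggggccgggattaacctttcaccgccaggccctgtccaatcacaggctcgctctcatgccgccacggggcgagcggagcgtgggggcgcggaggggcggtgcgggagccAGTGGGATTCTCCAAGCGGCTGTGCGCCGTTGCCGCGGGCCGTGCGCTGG
Both printed windows are rich in G and C, 72.3% for *AGO1* and 73.7% for *DICER1*, against a median of 58.7% over 35116 windows of the same length, and hold 30 and 37 CG pairs against a median of 14. A core word of SOX factors, ACAAT on either strand (ATTGT), occurs in neither window, while 27.4% of all windows hold it. Only this word was searched, so other forms of the SOX site may be present. The other 4 *DICER1* windows hold 0, 1, 1 and 2 copies of ACAAT or ATTGT. They are poorer in G and C than the median window, at 52.3% or less, with 0 to 15 CG pairs. These counts describe the letters of the windows and say nothing of where SOX11 binds.

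*AGO2*, the Argonaute that cuts the target of an siRNA, did not pass in any line. In REH it was at 35.3, 38.7 and 38.3 CPM with control siRNA and at 38.5, 31.6 and 34.3 CPM with *SOX11* siRNA, in 697 at 45.5, 37.6 and 40.0 CPM against 34.2, 31.1 and 44.0 CPM, and in RCH-ACV at 50.7, 42.1 and 49.5 CPM against 48.0, 46.0 and 48.7 CPM. The siRNA groups overlapped in every line. The log2 fold changes were -0.08 in REH (95% interval -0.24 to 0.07), -0.18 in 697 (-0.45 to 0.09) and -0.01 in RCH-ACV (-0.16 to 0.15), with adjusted p-values of 0.638, 0.804 and 0.961 (edgeR). The 697 value ranged from -0.34, without *SOX11* siRNA replicate 3, to -0.07, without replicate 2, and passed in neither case.

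The other 2 Argonautes, which silence mainly through GW182 proteins, did not pass either. *AGO3*, the lowest of the family with 100 to 269 counts in the control samples, had log2 fold changes of -0.09, -0.05 and -0.16 with *SOX11* siRNA in REH, 697 and RCH-ACV, and *AGO4* had 0.06, -0.01 and 0.06. At 100 to 269 counts a sample, the 95% interval of the *AGO3* value was as wide as -0.37 to 0.27 in 697.

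Among the partners of Dicer, *TARBP2*, which helps load the guide strand, was at 26.3, 25.9 and 27.6 CPM in the REH controls. It was at 25.9, 22.1 and 24.5 CPM with *SOX11* siRNA, with no overlap before rounding, as for 12.2% of tested genes in REH. The log2 fold change of *TARBP2* was -0.11 and did not pass (adjusted p = 0.551, edgeR). It was at 0.03 in 697 and -0.03 in RCH-ACV. *PRKRA*, which also activates the kinase PKR, was at -0.10, -0.13 and -0.02 on the log2 scale (REH, 697, RCH-ACV), and over the 3 lines at -0.08 (95% interval -0.16 to -0.01, adjusted p = 0.152). *PRKRA* shares its locus with *CHROMR* and *PJVK* on the other strand, as *AGO1* does with *CFAP97P1*, *DICER1* with *DICER1-AS1* and *TNRC6C* with *TMC6*, and since the sources used here do not say whether strand was used in counting, reads of such partners cannot be told apart.

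The GW182 proteins bridge Argonaute to the deadenylation complexes. Their genes lie on chromosomes 16 (*TNRC6A*, 24621530 to 24838953), 22 (*TNRC6B*, 40440821 to 40731812) and 17 (*TNRC6C*, 75954785 to 76104903) of hg19. The log2 fold change of *TNRC6A* was -0.04, -0.07 and -0.08 for REH, 697 and RCH-ACV. In RCH-ACV its controls were at 118, 117 and 119 CPM and the *SOX11* siRNA samples at 103, 106 and 126 CPM, with the third replicate above all controls, and without that replicate the log2 fold change was -0.18 with an adjusted p of 0.00774 (edgeR). *TNRC6B* ranged from -0.05 in REH over -0.03 in 697 to 0.15 in RCH-ACV (95% interval -0.02 to 0.32). *TNRC6C* was at 0.05, -0.05 and -0.18. None of these values passed with all samples in the fit. Apart from *AGO1* in REH and 697, *TARBP2* in REH and *DICER1*, the siRNA groups of every member overlapped in each line.

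Whether the siRNA effect differed between the lines was tested with the interaction of line and siRNA over the 18 samples. None of the 10 members passed, with adjusted p-values between 0.803 and 0.989 in edgeR's quasi-likelihood test, and none had an unadjusted p under 0.05 (102 of 14026 genes passed, 0.727%). For *DICER1* the effect in 697 minus that in REH was 0.13 (95% interval -0.06 to 0.32) and for *AGO1* 0.05 (-0.13 to 0.23). By DESeq2 no member passed either.

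The lines were then compared under control siRNA, in a fit of the 9 control samples. A line and anything done to its samples alone cannot be told apart, and most genes differed between any pair of lines. Of the 10 members 8 passed between 697 and REH, 1 higher and 7 lower in 697, where 76.3% of 13686 genes passed (37.0% higher and 39.4% lower). Between RCH-ACV and REH 8 passed, 2 higher and 6 lower in RCH-ACV, where 73.9% of all genes did (37.7% higher and 36.2% lower). Between RCH-ACV and 697 6 passed, 4 higher and 2 lower, where 64.2% of all genes did (33.3% higher and 30.9% lower). The shares of members that passed were thus near those of all genes. The median log2 difference of the members was -0.36 for 697 against REH and -0.28 for RCH-ACV against REH, where all genes had -0.02 and 0.01, and -0.01 for RCH-ACV against 697.

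**Figure D4:**
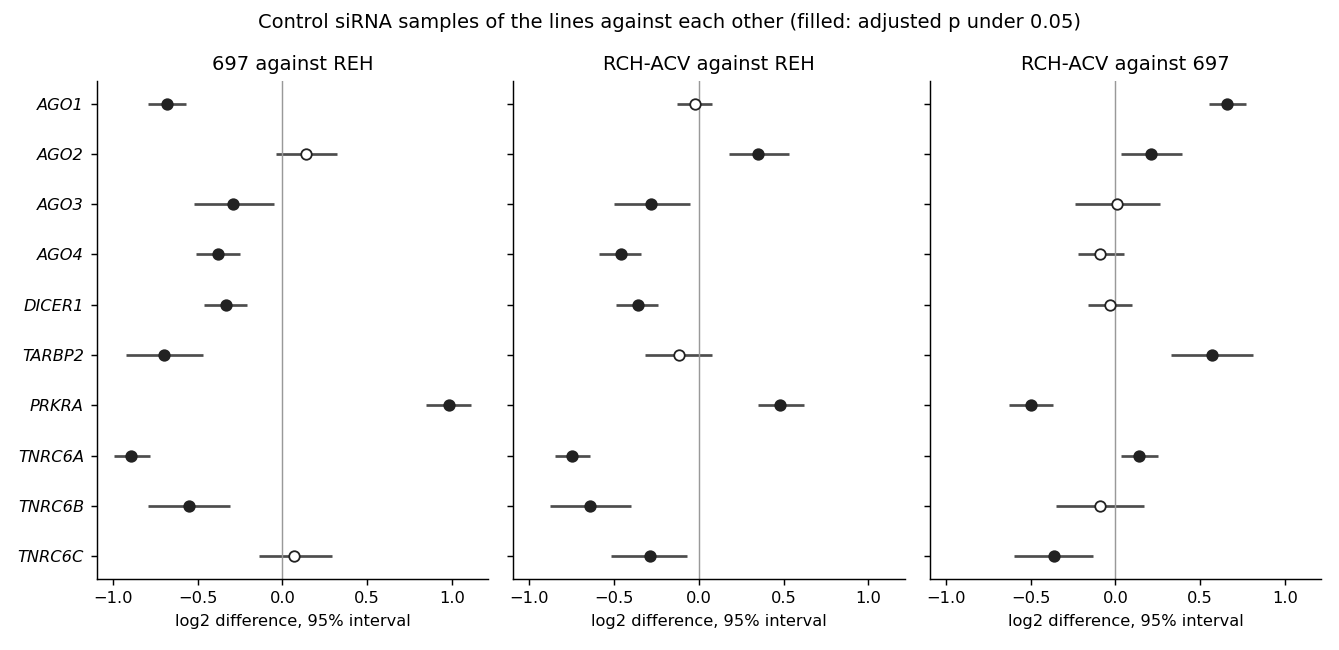
Log2 difference (x axis) of the 10 genes (y axis) between the control siRNA samples of each pair of lines, with 95% intervals as bars and filled points for adjusted p under 0.05. *PRKRA* is right of 0 in both comparisons with REH (0.98 and 0.48), *TNRC6A* and *TNRC6B* are left of 0 in both, and *AGO1* is lower in 697 than in either other line.

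*TNRC6A* was the member with the largest difference on the lower side. Its controls were at 193, 206 and 199 CPM in REH, at 115, 102 and 105 CPM in 697 and at 118, 117 and 119 CPM in RCH-ACV, so that REH was apart from the others. The log2 difference was -0.89 for 697 against REH (SE 0.05, adjusted p = 1.33e-11) and -0.75 for RCH-ACV against REH (SE 0.05, adjusted p = 1.44e-10, edgeR). RCH-ACV was 0.14 above 697 (adjusted p = 0.0281), a call lost with DESeq2 (0.0597), in the fit of the 18 samples (0.0722), with the 9 *SOX11* siRNA samples in place of the controls (0.138) and without any of 5 control samples. These were 697 replicates 2 and 3 and RCH-ACV replicates 1, 2 and 3, with adjusted p-values between 0.0503 and 0.113.

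*TNRC6B* was also higher in REH, at 71.8 ± 8.92 CPM against 48.7 ± 11.2 in 697 and 46.1 ± 2.58 in RCH-ACV (SD, n = 3 each), by log2 differences of -0.55 and -0.64 in the other lines (adjusted p = 0.000248 and 5.40e-05, edgeR). *TNRC6C* was at 27.5 ± 1.15 CPM in REH, 28.7 ± 4.16 in 697 and 22.3 ± 2.80 in RCH-ACV. It was lower in RCH-ACV than in REH by a log2 difference of -0.29 (adjusted p = 0.0176), a call lost without REH replicate 2 (0.0611) or RCH-ACV replicate 2 (0.104), and lower than in 697 by -0.36 (adjusted p = 0.00750). REH and 697 did not differ beyond their spread in it.

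*PRKRA* went the other way. Its controls were at 46.5, 49.6 and 51.3 CPM in REH, at 65.2 to 71.6 CPM in RCH-ACV and at 101, 96.9 and 91.1 CPM in 697, and no 2 lines overlapped. Against REH it was higher by 0.98 in 697 (SE 0.06, adjusted p = 7.60e-11) and by 0.48 in RCH-ACV (SE 0.06, adjusted p = 2.30e-06, edgeR). *TARBP2*, the other partner, was lowest in 697, at 13.6, 16.2 and 19.4 CPM against 26.3, 25.9 and 27.6 CPM in REH and 23.7, 24.8 and 24.2 CPM in RCH-ACV. The log2 difference was -0.70 for 697 against REH (SE 0.11, adjusted p = 1.12e-05) and 0.57 for RCH-ACV against 697 (SE 0.11, adjusted p = 0.000222), while REH and RCH-ACV did not differ beyond their spread (-0.12, adjusted p = 0.263, edgeR).

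Divided by transcript length, *PRKRA* made up 61.2% ± 0.944 of the 2 partners in REH, 83.3% ± 3.20 in 697 and 70.5% ± 1.41 in RCH-ACV (SD, n = 3 each, control samples). *DICER1* was higher in REH, at 146 ± 0.859 CPM, than in 697 (115 ± 11.4) and RCH-ACV (113 ± 4.87), with log2 differences of -0.33 (adjusted p = 6.08e-05) and -0.36 (adjusted p = 2.40e-05) in these lines, and 697 and RCH-ACV did not differ beyond their spread (-0.03, adjusted p = 0.702, edgeR).

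*AGO1* was at 117 ± 3.61 CPM in REH and 114 ± 2.74 in RCH-ACV, which did not differ beyond their spread (log2 difference -0.02, adjusted p = 0.668), and at 72.7 ± 2.10 CPM in 697 (SD, n = 3 each). The 697 level was lower than that of REH by a log2 difference of -0.68 (SE 0.05, adjusted p = 8.66e-10), and RCH-ACV was higher than 697 by 0.66 (SE 0.05, adjusted p = 3.60e-09, edgeR). Its neighbor *AGO4* was highest in REH, at 90.9 ± 4.54 CPM against 69.9 ± 3.62 in 697 and 65.8 ± 2.45 in RCH-ACV, with log2 differences from REH of -0.38 and -0.46 (adjusted p = 1.64e-05 and 1.39e-06). *AGO3*, the next gene downstream of *AGO1*, was at 21.0 ± 2.07, 17.0 ± 2.17 and 17.1 ± 1.40 CPM in REH, 697 and RCH-ACV. It was lower than REH in 697 (-0.29, adjusted p = 0.0247) and in RCH-ACV (-0.28, adjusted p = 0.0278), calls lost with DESeq2 (0.0639 and 0.0758) and without single libraries, namely REH control replicate 2 or 3 in both comparisons, 697 replicate 2 in the former and RCH-ACV replicate 2 or 3 in the latter (0.0543 to 0.131).

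*AGO2* was the Argonaute with its highest level in RCH-ACV, at 47.4 ± 4.62 CPM, against 41.0 ± 4.07 in 697 and 37.4 ± 1.86 in REH (SD, n = 3 each). RCH-ACV was above REH by a log2 difference of 0.35 (SE 0.08, adjusted p = 0.000856) and above 697 by 0.21 (SE 0.09, adjusted p = 0.0370, edgeR). The second call was lost with DESeq2 (0.0719), in the fit of the 18 samples (0.0743) and without 697 replicate 2 or 3 or RCH-ACV replicate 1 or 3 (0.0945 to 0.157). 697 and REH did not differ beyond their spread (0.14, adjusted p = 0.145).

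Within the family, the *AGO2* share of the summed Argonaute level per length was 9.81% to 10.9% in the REH controls, 14.2% to 15.9% in 697 and 13.8% to 16.1% in RCH-ACV. The REH samples lay below all samples of the other lines. The mean was higher than in REH by 4.69 percentage points in 697 and by 4.68 in RCH-ACV (two-sided exact permutation test, p = 0.1, adjusted p = 0.150, and 0.1 is the smallest p that 3 samples against 3 allow). The difference of RCH-ACV from 697 was -0.01 points (p = 1.00 in the same exact permutation test). The share is a ratio within a sample, so no scaling between libraries enters it.

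By length *AGO4* made up the largest share, 50.7% ± 1.78 in REH, 51.7% ± 1.14 in 697 and 42.1% ± 1.74 in RCH-ACV, followed by *AGO1* at 34.6% ± 0.769, 28.5% ± 0.543 and 38.8% ± 0.453 (SD, n = 3 each). In counts not divided by length *AGO1* was ahead of *AGO4*, at 43.9% against 34.1% in REH, 36.2% against 34.9% in 697 and 46.8% against 26.9% in RCH-ACV. The lengths were those of the canonical GENCODE transcripts lifted to hg19 (13712 bases for *AGO1*, 7272 for *AGO4*), which may differ from the RefSeq models that were counted, so the order of these genes within a sample is less certain than their difference between lines. *AGO3* made up 4.05% to 4.65% of the level per length in the 3 lines.

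**Figure D5:**
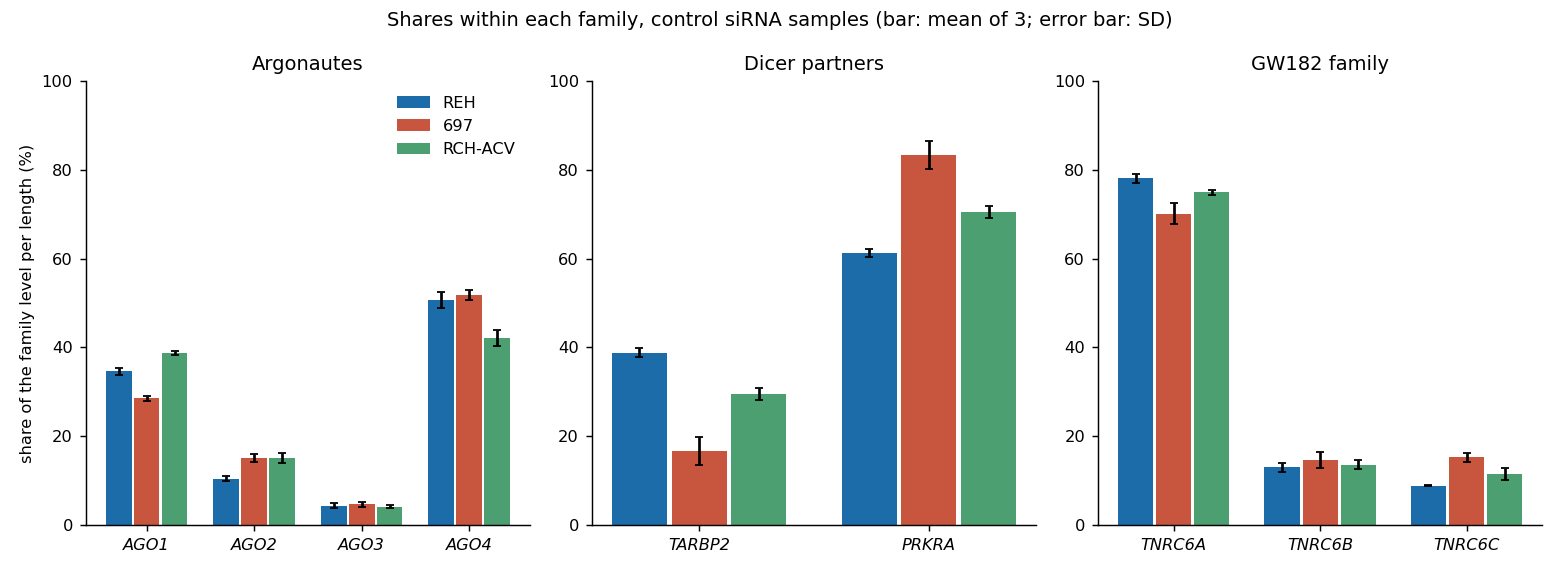
Share of each gene in the summed level per length of its family (y axis, percent) in the control siRNA samples, by gene (x axis) and line (color), with bars for the mean of 3 and error bars for the SD. *AGO2* is at 10.4% in REH and 15.1% in the other lines, *PRKRA* rises from 61.2% in REH to 83.3% in 697, and *TNRC6A* is the largest GW182 share at 70.1% to 78.1%.

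Summed per length, the 4 Argonautes reached 24.7 ± 0.620 CPM per kb in the REH controls, 18.6 ± 0.899 in 697 and 21.5 ± 0.505 in RCH-ACV, and the GW182 genes 30.0 ± 1.36, 18.1 ± 1.81 and 18.6 ± 0.301 (SD, n = 3 each). The sum of the Dicer partners ran in another order, 45.4 ± 1.79 in REH, 65.3 ± 0.975 in 697 and 54.5 ± 1.50 in RCH-ACV. REH thus had the most Argonaute and GW182 mRNA per length and the least mRNA of the Dicer partners. No test was run on these sums.

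These levels stand beside the knockdown as follows. *SOX11* had a log2 fold change of -0.91 in 697 (SE 0.07), -0.83 in REH (SE 0.07) and -0.67 in RCH-ACV (SE 0.05). Its effect in RCH-ACV minus that in 697 was 0.24 (95% interval 0.02 to 0.46, adjusted p = 0.641 over all genes, edgeR). RCH-ACV minus REH was 0.16 (-0.04 to 0.35, adjusted p = 0.588) and 697 minus REH was -0.08 (-0.31 to 0.14, adjusted p = 0.970), so that no pair of lines passed. By mean level under control siRNA RCH-ACV had the highest *AGO2* and *SOX11* and the lowest *AGO4*, *DICER1*, *TNRC6B* and *TNRC6C*. The line 697 had the lowest *AGO1*, *AGO3*, *TARBP2*, *TNRC6A* and *SOX11* and the highest *PRKRA* and *TNRC6C*. Of these, *AGO3*, *AGO4*, *DICER1* and *TNRC6B* did not pass between RCH-ACV and 697, nor did *TNRC6C* between 697 and REH. With 3 lines no relation between these levels and the knockdown could be tested.

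The wider pathway was covered by 4 lists. In the list of microRNA biogenesis and export 16 of 18 genes were tested in each line, and in that of RISC loading and turnover (Argonaute chaperones and regulators) 25, 26 and 24 of 26 in REH, 697 and RCH-ACV. None of these genes passed for *SOX11* siRNA in any line (edgeR), where 4.65%, 0.559% and 7.64% of all tested genes did. An unadjusted p under 0.05 (edgeR) was found for 3, 1 and 4 of the former and 3, 2 and 9 of the latter. The share of all tested genes under that unadjusted threshold was not counted, so these counts have no background to be read against. Their median log2 fold changes lay between -0.02 and 0.02, beside -0.00 to 0.01 for all tested genes. By the rule for naming genes none of them is named here for the siRNA.

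In the list of deadenylation, decapping and decay 28 of 29 genes were tested in each line, and 1 passed in each, *LSM14B*, lower with *SOX11* siRNA, where 4.65%, 0.559% and 7.64% of all tested genes passed in REH, 697 and RCH-ACV. LSM14 proteins bind the helicase DDX6 in P bodies, where silenced mRNAs gather. *LSM14B* was at 145, 157 and 143 CPM in the REH controls against 131, 129 and 127 CPM, at 176, 175 and 171 CPM against 148, 145 and 144 CPM in 697, and at 127, 121 and 133 CPM against 113, 112 and 107 CPM in RCH-ACV. The log2 fold changes were -0.20 (adjusted p = 0.00869), -0.27 (0.0478) and -0.20 (0.0252, edgeR). In 697 the call was lost in 10 alternatives, among them the replicate block (0.213) and leaving out any of the 6 samples (0.0697 to 0.276). RCH-ACV lost it with DESeq2 (0.0609), with the block (0.0628) and without *SOX11* siRNA replicate 1 or 2 or control replicate 1 or 3 (0.0600 to 0.142), and REH without control replicate 2 (0.0741).

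Over the 3 lines *LSM14B* was at -0.22 (SE 0.03, adjusted p = 5.87e-06) and its paralog *LSM14A* at 0.09 (SE 0.03, adjusted p = 0.0366, edgeR), in opposite directions. The call of *LSM14A* was lost with no filter on low counts (0.0518), with the replicate block (0.0954), without any single line (0.0802 to 0.215) and without any of 10 of the 18 samples (0.0525 to 0.0738). In the lists of microRNA biogenesis and of RISC loading none passed over the 3 lines, where 9.02% of all tested genes did. The germline Piwi Argonautes, which act with another class of small RNAs, were near or under the floor: *PIWIL1* and *PIWIL3* had 0 counts in all 18 samples, *PIWIL2* did not exceed 0.543 CPM, and *PIWIL4* lay between 0.543 and 1.42 CPM.

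The wider lists were also compared between the lines, where 76.3%, 73.9% and 64.2% of all genes passed for 697 against REH, RCH-ACV against REH and RCH-ACV against 697. Of the 16 tested genes of biogenesis and export 11 passed between 697 and REH (7 higher and 4 lower in 697), 12 between RCH-ACV and REH (10 and 2) and 12 between RCH-ACV and 697 (7 and 5). *ADARB1*, which edits adenosine to inosine in double-stranded RNA, was at 3.60 ± 0.451 CPM in REH, 204 ± 8.53 in 697 and 123 ± 2.43 in RCH-ACV (SD, n = 3 each), log2 differences from REH of 5.80 and 5.08. *NCBP2* of the cap-binding complex was also lowest in REH (125 ± 6.06 against 227 ± 5.87 and 200 ± 5.58 CPM). *ZC3H12A*, a nuclease that degrades precursor microRNAs, was lowest in 697 (4.32 ± 0.421 CPM against 7.62 ± 1.14 in REH and 6.75 ± 1.12 in RCH-ACV). The uridylyltransferase *TUT7* was 0.31 higher in RCH-ACV than in REH (log2, adjusted p = 0.00203), and the exporter *XPO5* was highest in 697 (264 ± 13.9 CPM), with a log2 difference of -0.43 for RCH-ACV against 697 (adjusted p = 2.04e-07, edgeR).

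In RISC loading and turnover 20, 23 and 22 of 26 genes passed in the same 3 comparisons (all genes 76.3%, 73.9% and 64.2%), with 13, 17 and 13 of them higher. *FKBP4*, a co-chaperone of HSP90, was at 143 ± 4.36 CPM in REH, 86.7 ± 3.84 in 697 and 256 ± 4.29 in RCH-ACV (SD, n = 3 each). *FXR1*, a relative of the fragile X protein, was higher in 697 than in REH by 0.99 and the chaperone *DNAJB1* lower by a log2 difference of -0.83. The Argonaute-binding LIM proteins *LIMD1* and *AJUBA* were highest in RCH-ACV, by 1.26 against REH for *LIMD1* and by 1.11 against 697 for *AJUBA*. *TRIM71*, a ubiquitin ligase known for binding Argonaute, had 0, 1 and 3 counts in the REH controls, 33, 21 and 21 in 697 and 5, 3 and 8 in RCH-ACV.

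In deadenylation, decapping and decay 21, 21 and 12 of 28 genes passed (all genes 76.3%, 73.9% and 64.2%), with 8, 9 and 6 of them higher. *PABPC1*, the poly(A)-binding protein that GW182 proteins contact, was at 1174 ± 22.8 CPM in REH, 3737 ± 118 in 697 and 3065 ± 23.9 in RCH-ACV (SD, n = 3 each), log2 differences from REH of 1.67 and 1.39 (adjusted p = 2.32e-18 and 3.35e-17, edgeR). *PABPC4* was 0.95 higher in 697 than in REH and the decapping scaffold *EDC4* lower by a log2 difference of -0.87. *TOB1*, which recruits the CCR4-NOT deadenylase, was highest in RCH-ACV (53.3 ± 4.19 CPM against 19.5 ± 0.748 in REH and 21.7 ± 2.76 in 697). The decapping subunit *DCP1A* was 0.93 higher in RCH-ACV than in REH. Between RCH-ACV and 697 *LSM1* was 0.80 higher and the deadenylase *PAN2* lower, at -0.70.

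Across the 18 samples the genes whose log2 CPM was most like that of *AGO2*, among 11189 genes averaging 5 CPM or more, were *NAF1*, *YWHAG*, *BAZ1A*, *MTMR7* and *STX3* (Pearson's r 0.85 to 0.89). For *DICER1* they included *NAA50*, *SF3B3*, *SLF2* and *CCNA2* (r 0.90 to 0.96). After subtracting the mean of each line and siRNA the values of these genes were 0.56 to 0.87 and 0.60 to 0.77. The points share lines, libraries and the scaling between them, and the genes were picked as the highest of all, so these values describe the samples.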

How the data were processed

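RNA was sequenced from REH, 697 and RCH-ACV cells 48 h after nucleofection with *SOX11* or control siRNA, 3 samples per group. Reads were trimmed and filtered for quality by the authors, who mapped them with STAR (2.5.3a in the submitters' processing notes) to hg19, discarded those with many alignments and counted with HOMER. They deposited raw read counts per RefSeq transcript, without normalization, in 1 table for each line. The tables held 0 columns of other samples. Whether counting used the strand of the stranded libraries is not given in the sources used here.

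Of 50678 transcripts 98.0% matched a symbol (99.0% of counts), and since a gene's overlapping transcripts share reads, 1 was kept per gene. The lowest total of a member's transcripts was 77.7% of the highest, for *TNRC6B*. Counts were fitted in edgeR 4.0.16 (R 4.3.3) with TMM scaling, the filterByExpr filter on groups and the two-sided quasi-likelihood test, for each line, for pairs of lines over the 9 control samples and for the interaction over 18. The *AGO2* share was compared with exact permutation tests in SciPy 1.17.1. Intervals are 95% intervals. Replicates are described as biological, and p-values measure the spread between these samples.

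The members and the gene lists were chosen with earlier results of these data known. Named were all members, *SOX11*, list genes that passed for the siRNA (at most 4 a list and line), and for lines the 3 largest differences in each list among genes averaging 1 CPM or more, and the 5 genes most like each of *AGO2* and *DICER1* over the samples, of which 1 is not reported here. *CNOT6* and *TRAC* of the lists had no row matched to them. Alternatives were DESeq2 1.42.0, scaling by RLE or by library size alone, edgeR's legacy method, 2 other filters (none, and 3 or more samples with CPM above 1), a block on the replicate number, all 18 samples in 1 fit, the transcript chosen within the line, the *SOX11* siRNA samples in place of controls, and leaving out each sample. The legacy method, the fit over the 3 lines with its alternatives, and for the *AGO2* share the longest transcript, undivided counts and the *SOX11* siRNA samples were chosen after seeing the data. Between replicates of the same line and siRNA, chi-square over its degrees of freedom was 1.28 to 4.97, so no library was a copy of another in its group.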

Additional observations from a re-analysis of the deposited data

How the results depend on the processing

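Of 1230 log2 values of the 10 members under the alternatives, 1147 kept direction and side of the threshold, 35 lost a call, 7 gained one and 41 changed sign, each of the latter from a value that had not passed. The 240 interaction p-values, which have no direction, all stayed above the threshold. The causes were not tested. With library size alone the median log2 difference of all genes for 697 against REH moved from -0.02 to -0.15. Within lines the deviations of same-numbered samples correlated weakly, between -0.180 and 0.178, which cannot settle whether these samples were handled together. With the replicate block 29 genes in place of 68 passed in 697, 45 in place of 102 for the interaction and 823 in place of 1265 over the 3 lines, and the AGO1 call in REH was lost. DESeq2 called 315 genes in REH and 577 in RCH-ACV, and 1 fit of the 18 samples called 242 in REH and 193 in 697. Without RCH-ACV the fit over the lines called 393. Leaving out single samples gave 299 to 521 genes in REH, 25 to 71 in 697, 386 to 2518 in RCH-ACV, 57 to 185 for the interaction and 909 to 1471 over the 3 lines.

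Sign changes came as follows, as log2 values. With library size alone, *TNRC6C* was -0.06 (697 against REH), *DICER1* 0.03 (RCH-ACV against 697), *AGO4* 0.00 in 697 and *AGO2* 0.00 in RCH-ACV for the siRNA. *AGO4* in 697 was also 0.00 with no filter, and *AGO2* in RCH-ACV 0.01 with the replicate block. With *SOX11* siRNA samples in place of controls, *TNRC6C* was -0.03 (697 against REH), *AGO3* -0.10 and *TNRC6B* 0.09 (RCH-ACV against 697), and the *AGO2* share of RCH-ACV minus 697 was 1.68 percentage points. Without RCH-ACV, *TNRC6B* was -0.04 and *TNRC6C* 0.01 over the lines. Leaving out single samples, the siRNA effect ranged from -0.13 to 0.06 for *TNRC6B* in REH. In 697 it ranged from -0.20 to 0.06 for *AGO3*, -0.07 to 0.05 for *AGO4*, -0.10 to 0.17 for *TARBP2*, -0.12 to 0.17 for *TNRC6B* and -0.13 to 0.06 for *TNRC6C*. In RCH-ACV it ranged from -0.08 to 0.04 for *AGO2*, -0.09 to 0.02 for *TARBP2* and -0.04 to 0.02 for *PRKRA*, and over the lines from -0.02 to 0.07 for *TNRC6B*. The difference of 697 from REH ranged from -0.03 to 0.16 for *TNRC6C*, and that of RCH-ACV from 697 from -0.07 to 0.08 for *AGO3*, -0.09 to 0.05 for *DICER1*, -0.18 to 0.12 for *TNRC6B* and -0.51 to 0.66 points for the *AGO2* share.

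The length of the counted RefSeq models was not used, because neither the tables nor the reference give it, so that alternative was not run.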
